A study of Mus musculus with 8 samples.

Results

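A set of 10 genes known as targets of the BACH transcription factors were followed through mouse germinal centre B cells with and without an intact Bach2 gene. They were chosen by name, as the rows of the deposited expression table called Hmox1, Fth1, Ftl1, Gclc, Gclm, Slc7a11, Txnrd1, Prdx1, Srxn1 and Nqo1, which cover heme breakdown, iron storage, glutathione supply and the thioredoxin system. All 10 were among the 23234 genes of the table, and 8 of them passed a filter on low values and were tested with 10610 genes in all. In brief, Hmox1, Gclc, Gclm, Txnrd1 and Prdx1 were higher without Bach2 in both zones of the germinal centre. Of these dark zone calls, only that of Hmox1 held whichever library was left out. Slc7a11 passed the threshold in the light zone, a call also lost without some libraries, but not in the dark zone. Fth1 and Ftl1 did not pass it in either, and Nqo1 and Srxn1 were close to 0 everywhere.

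The libraries came from naive B cells of C57BL/6 background that were transferred, each genotype on its own, into wild-type CD45.1/45.2 recipients. Every donor cell carried Prdm1(f/f), ERT2cre(KI/+) and B1-8hi(KI/+): a floxed Prdm1 gene (Blimp1, the plasma cell factor), a tamoxifen-inducible Cre recombinase and an antigen receptor that binds the hapten NP. The groups with Bach2(+/+) are called sKO here, since Prdm1 is the one floxed gene in them, and those with Bach2(f/f) are called dKO. Tamoxifen (3 mg for 3 days) was given before immunization with NP-CGG in alum. On day 10, NP-binding GL7+ CD38- donor cells were sorted as light zone (LZ; CD86 high, CXCR4 low) or dark zone (DZ; CD86 low, CXCR4 high) cells from the pooled spleens of 5 recipients, about 30000 cells per library. In the DZ cells divide and mutate their receptor genes, and in the LZ they are selected by antigen and T cells. Each of the 4 groups (sKO and dKO, each as LZ and DZ) held 2 libraries. No group had intact Prdm1, the recipients were not deleted for either gene, and the labels do not say whether the 2 libraries of a group came from separate pools, so the p-values rest on the spread between libraries that may be technical repeats.

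BACH1 and BACH2 are repressors that pair with small MAF proteins and bind Maf recognition elements, which overlap in letters with the antioxidant response elements used by the activator NRF2 (Nfe2l2). Heme binds BACH proteins and releases them from DNA, and oxidants release NRF2 from its inhibitor KEAP1, so that the same genes can answer to both signals. BACH2 is the member of the family best known in B cells, where it restrains plasma cell differentiation. Of the 10 genes, Hmox1 is the textbook case of BACH repression.

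The letters of these elements were looked for in RefSeq promoters (build GRCm38.p6, 250 bases before to 50 after each start), which were given for 8 of the 10 genes; Hmox1 and Gclc had no entry. Searched on both strands were TGACNNNGC, the core of the antioxidant response element, GCTGANTCA, the flank and AP-1 core of a BACH and MAF element, and TGANTCA, the AP-1 core alone, which lies inside the second motif. The first was found in promoters of 4 of the 8 genes (Gclm, Prdx1, Srxn1 and Txnrd1), against 14.0% of all 27025 genes with a promoter, the second in 2 (Prdx1 and Srxn1), against 1.37%, and the third in the same 2, against 8.97%. The stretches below are shown because they hold every match before the start site in these 4 genes, on the forward strand of the gene, 5′ to 3′, with the matched letters in capitals. A match describes letters and not binding.
Prdx1, chr4:116685349-116685499 (+): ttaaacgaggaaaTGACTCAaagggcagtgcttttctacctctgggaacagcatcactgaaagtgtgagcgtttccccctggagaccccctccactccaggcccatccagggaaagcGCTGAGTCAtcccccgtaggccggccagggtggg
Srxn1, chr2:152105397-152105512 (+): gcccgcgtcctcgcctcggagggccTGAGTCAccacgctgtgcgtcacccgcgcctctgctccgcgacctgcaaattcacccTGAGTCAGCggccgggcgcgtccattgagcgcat
Gclm, chr3:122245398-122245456 (+): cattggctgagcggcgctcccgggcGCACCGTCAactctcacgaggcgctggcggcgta
Txnrd1, chr10:82859089-82859147 (+): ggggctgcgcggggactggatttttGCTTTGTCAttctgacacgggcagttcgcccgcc

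In Prdx1 the run GCTGAGTCA, at -133 to -125 from the start, met all 3 motifs at once, the antioxidant core on the reverse strand. In Srxn1 the run TGAGTCAGC, at -45 to -37, met the BACH and MAF letters on the reverse strand, and its antioxidant core match lay after the start, at 29 to 37, outside the stretch shown. The Gclm match lay at -134 to -126, and the Txnrd1 match at -92 to -84 in 1 of its 3 promoter entries. These genes did not share a level: Prdx1 was among the more abundant of the 10, and Srxn1, with the same AP-1 core letters, was at or near 0 and was not tested.

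Levels are FPKM, a fragment count corrected for transcript length and library size, so that they can be set side by side between genes. Differences are on the log2(FPKM + 1) scale ± SE, from limma over all 8 libraries, with p-values adjusted over all genes tested (Benjamini-Hochberg); "rose" and "fell" are used only past an adjusted p of 0.05. Adding 1 understates the change of genes near or below 1 FPKM. FPKM summed to 502214 to 540885 per library, and 10192 to 10250 genes reached 1 FPKM. FPKM do not give the absolute depth. By the ratios at which low values of a gene stood between libraries, the LZ libraries held 0.615 to 0.677 and the other DZ libraries 0.872 to 0.919 times the reads of sKO DZ replicate 1. Bach2 itself was at 49.8 and 53.4 FPKM in sKO LZ, 64.5 and 62.7 in dKO LZ, 76.2 and 74.6 in sKO DZ and 96.2 and 94.5 in dKO DZ. Since such a value also counts the exons that remain after Cre recombination, and which exon is floxed is not given in the sources used here, it checks nothing about the labels. The B cell markers Cd79a, Cd79b and Ms4a1 were between 606 and 1197 FPKM in every library. The summed level of 6 B cell markers was 3599 to 3715 FPKM in sKO LZ against 3120 to 3131 in dKO LZ, and 3092 to 3202 in sKO DZ against 2670 to 2719 in dKO DZ. In dKO cells 4 of the 6 fell in LZ and 3 in DZ, against 12.7% and 5.23% of all genes tested. Their part in the results below was not tested. As sorted, Cd86 was higher in the LZ (77.4 to 105.7 FPKM) than in the DZ libraries (31.2 to 38.4), and Cxcr4 lower (73.5 to 78.3 against 129.2 to 138.8).

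**Figure D1:**
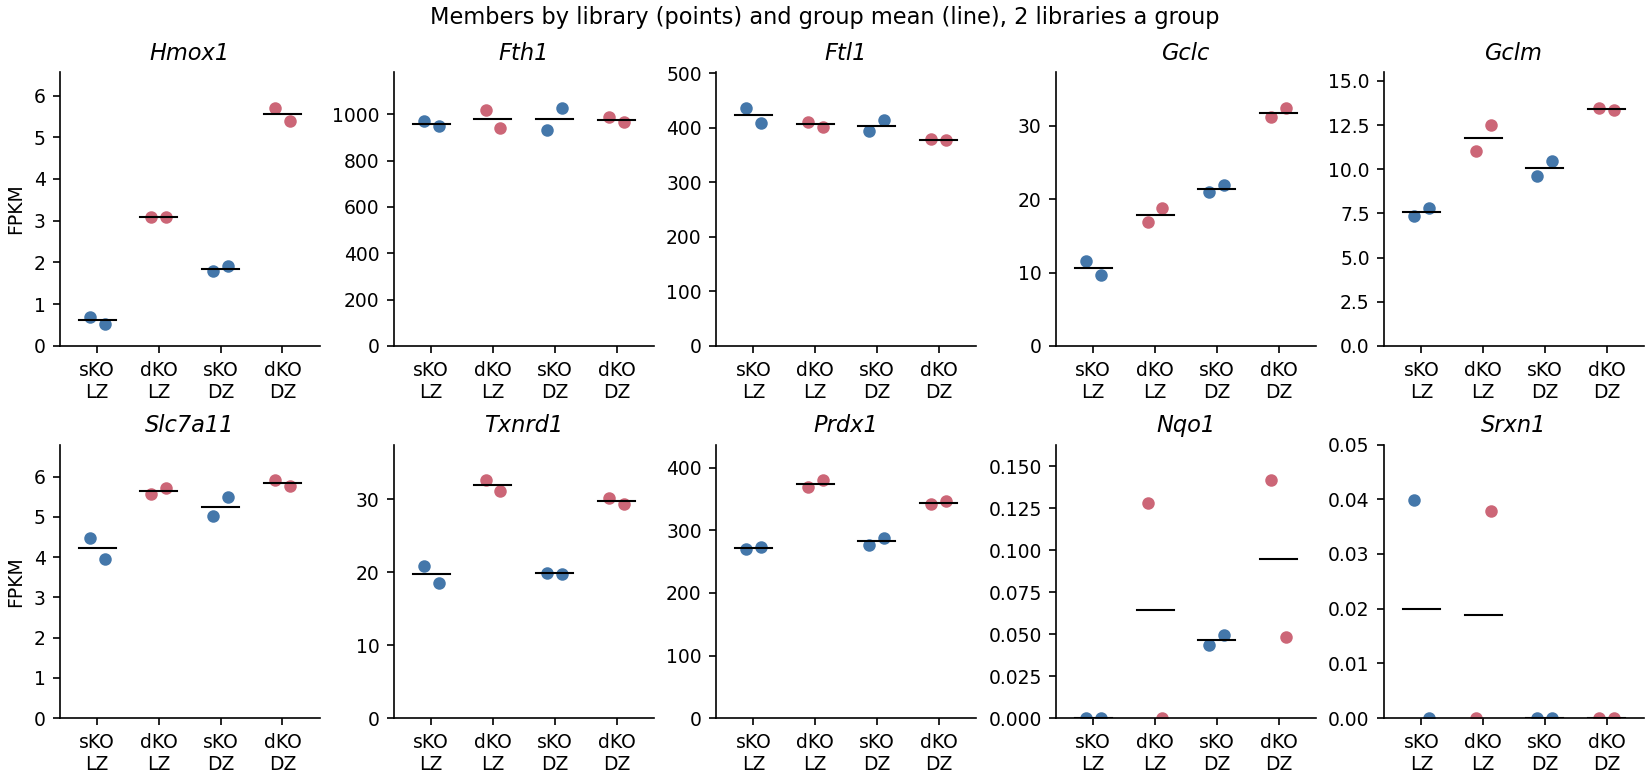
Level of each of the 10 genes in FPKM (vertical axes, from 0, with a scale of their own) in the 8 libraries, as points coloured by genotype, with the group mean as a line. Hmox1, Gclc, Gclm, Slc7a11, Txnrd1 and Prdx1 have both dKO libraries above both sKO libraries in each zone. The share of all genes tested for which this holds was not computed. Fth1 stays between 931 and 1027 FPKM, and Srxn1 does not pass 0.0399 FPKM.

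Hmox1 encodes the inducible heme oxygenase, which opens heme into biliverdin, carbon monoxide and iron. Its level was 0.692 and 0.529 FPKM in sKO LZ, 3.09 and 3.09 in dKO LZ, 1.79 and 1.91 in sKO DZ and 5.70 and 5.40 in dKO DZ. The 4 groups did not overlap, and their order was sKO LZ, sKO DZ, dKO LZ, dKO DZ. Hmox1 rose in dKO cells by 1.34 ± 0.083 in LZ (limma adjusted p = 0.000884) and by 1.20 ± 0.083 in DZ (limma adjusted p = 0.00155). In FPKM the dKO mean was 5.05 times the sKO mean in LZ and 3.00 times in DZ. The change lay at the 99.5th percentile of all genes tested in both zones. Both calls held in each alternative run, with adjusted p up to 0.0109 in LZ and 0.0245 in DZ. With a pseudocount of 0.1 in place of 1 the differences were 2.17 in LZ and 1.54 in DZ.

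Hmox1 is also abundant in macrophages of the spleen, so the level of 13 macrophage and myeloid markers was set beside it. Their sum was 16.7 and 60.8 FPKM in sKO LZ, 30.3 and 153.7 in dKO LZ, 7.68 and 9.20 in sKO DZ and 8.99 and 8.13 in dKO DZ. The sum was higher in LZ than in DZ libraries and differed between libraries of 1 group in LZ. The part of these cells in the Hmox1 values was not tested. Of the 13 markers, 6 reached 1 FPKM in any library. The neutrophil genes S100a8 and S100a9 made up most of the sum in dKO LZ replicate 2, at 53.1 and 50.7 FPKM. Cd68, a lysosomal protein of macrophages, was between 5.38 and 8.92 FPKM in every library, and the lysozyme gene Lyz2 was at 0.946 and 5.85 FPKM in sKO LZ, 4.91 and 24.8 in dKO LZ and at most 0.548 in DZ. The macrophage markers Csf1r, Emr1 (F4/80) and Cd163 did not exceed 0.442 FPKM in any library. Spic, a factor of the iron-recycling macrophages of the spleen, was at 0 in 7 libraries and at 0.190 FPKM in sKO DZ replicate 2. Of the 6 myeloid markers tested, 1 rose in LZ (Tyrobp, adjusted p = 0.0493, limma), against 18.4% of all genes tested. In DZ 0 rose or fell, against 6.63% and 5.23%. All of the 6 but Cd68 passed the filter only through LZ libraries. In DZ these were at most 1.34 FPKM (S100a9 in dKO), so the DZ test could show little about them.

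**Figure D2:**
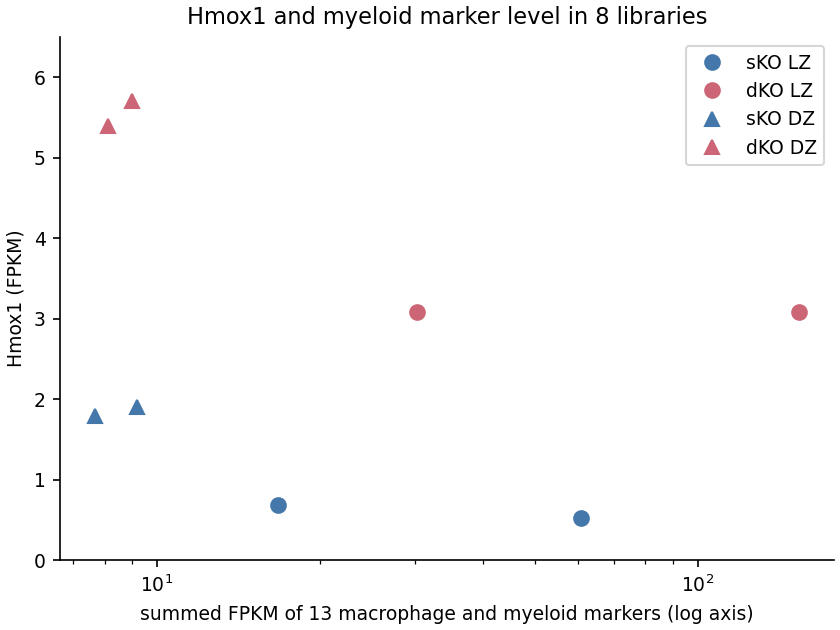
Hmox1 in FPKM (vertical axis) against the summed FPKM of 13 macrophage and myeloid markers (horizontal log axis), 1 point per library, coloured by genotype, circles for LZ and triangles for DZ. The dKO LZ libraries have marker sums of 30.3 and 153.7 FPKM at the same Hmox1 level, and the dKO DZ libraries the highest Hmox1 at sums of 8.13 to 8.99.

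The ferritin genes Fth1 and Ftl1 encode the heavy and light chains of the shell in which cells store iron, and were the most abundant of the 10. Fth1 was at 969 and 948 FPKM in sKO LZ, 1017 and 942 in dKO LZ, 931 and 1027 in sKO DZ and 987 and 964 in dKO DZ. The groups overlapped throughout. Its genotype difference was 0.030 ± 0.063 in LZ (95% interval -0.12 to 0.18) and -0.003 ± 0.063 in DZ (-0.154 to 0.147), with adjusted p = 0.752 and 0.985 (limma). Ftl1 was at 436 and 409 FPKM in sKO LZ, 411 and 402 in dKO LZ, 393 and 414 in sKO DZ and 380 and 377 in dKO DZ. The groups overlapped in LZ, and in DZ both dKO libraries were below both sKO libraries. Its differences were -0.055 ± 0.047 in LZ (95% interval -0.168 to 0.058) and -0.092 ± 0.047 in DZ (-0.205 to 0.021), with adjusted p = 0.419 and 0.261 (limma). The intervals, on the log2 scale, do not hold changes of the size seen in Hmox1. Both ferritin genes have processed copies in the mouse genome with which they can share reads, and ferritin is known to be set largely at translation, which RNA levels do not show. The ratio of Fth1 to Ftl1 was 2.27 ± 0.069 and 2.41 ± 0.092 in LZ of sKO and dKO cells and 2.42 ± 0.081 and 2.58 ± 0.029 in DZ (mean ± SD, n = 2).

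Glutathione, the main small thiol of the cell, is made from cysteine, glutamate and glycine, and the first and limiting step is taken by glutamate-cysteine ligase, which has a catalytic subunit (Gclc) and a modifier subunit (Gclm). Gclc was at 11.6 and 9.61 FPKM in sKO LZ, 16.9 and 18.8 in dKO LZ, 21.0 and 21.9 in sKO DZ and 31.2 and 32.5 in dKO DZ. No 2 groups overlapped, with dKO DZ highest and sKO LZ lowest. It rose in dKO by 0.70 ± 0.092 in LZ (limma adjusted p = 0.00302) and 0.55 ± 0.092 in DZ (limma adjusted p = 0.0167), or 1.68 and 1.48 times in FPKM. Gclm was at 7.35 and 7.82 FPKM in sKO LZ, 11.1 and 12.5 in dKO LZ, 9.60 and 10.5 in sKO DZ and 13.5 and 13.3 in dKO DZ. Here, too, the groups did not overlap, in the order sKO LZ, sKO DZ, dKO LZ, dKO DZ. It rose in dKO by 0.57 ± 0.075 in LZ (limma adjusted p = 0.00305) and 0.38 ± 0.075 in DZ (limma adjusted p = 0.0250), or 1.55 and 1.33 times.

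Both DZ calls were close to the threshold and were lost when any 1 of the 4 DZ libraries was left out, with adjusted p of 0.0599 to 0.104 for Gclc and 0.0576 to 0.137 for Gclm, and without the filter on low values (0.0809 and 0.0867). The ratio of Gclc to Gclm was 1.40 ± 0.24 and 1.51 ± 0.016 in LZ of sKO and dKO cells and 2.14 ± 0.065 and 2.37 ± 0.083 in DZ (mean ± SD, n = 2). The lowest DZ library, at 2.09, was above the highest LZ library, at 1.58.

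Slc7a11 encodes the exchanger that brings in cystine, the oxidised form of cysteine, in return for glutamate. It was at 4.48 and 3.96 FPKM in sKO LZ, 5.56 and 5.73 in dKO LZ, 5.01 and 5.49 in sKO DZ and 5.91 and 5.76 in dKO DZ. The sKO LZ libraries were thus the lowest 2, and the other 6 lay between 5.01 and 5.91 FPKM. Slc7a11 rose in dKO LZ cells by 0.35 ± 0.076 (limma adjusted p = 0.0162), but this did not hold without dKO LZ replicate 1 (0.0638), dKO LZ replicate 2 (0.0769) or sKO LZ replicate 2 (0.0654), nor in a fit of the LZ libraries alone (0.0513). In DZ the difference was 0.13 ± 0.076 (95% interval -0.053 to 0.312, adjusted p = 0.328, limma). The difference between zones was itself not past the threshold (0.22 ± 0.11, adjusted p = 0.487).

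Of the thioredoxin system, Txnrd1 encodes the cytosolic reductase, a selenoprotein that passes electrons from NADPH to thioredoxin. It was at 20.9 and 18.5 FPKM in sKO LZ, 32.6 and 31.1 in dKO LZ, 19.9 and 19.8 in sKO DZ and 30.2 and 29.3 in dKO DZ. The dKO libraries stood above the sKO libraries in both zones, and the sKO libraries of the 2 zones overlapped. Txnrd1 rose in dKO by 0.67 ± 0.062 in LZ (limma adjusted p = 0.00131) and 0.56 ± 0.062 in DZ (limma adjusted p = 0.00604). The DZ value was 0.0593 without dKO DZ replicate 1. In LZ the FPKM ratio of the means was 1.62. Prdx1 encodes a peroxiredoxin, which reduces peroxides and is itself restored by thioredoxin. It was at 270.1 and 273 FPKM in sKO LZ, 369 and 380 in dKO LZ, 277 and 287 in sKO DZ and 341 and 346 in dKO DZ. The highest sKO library was thus below the lowest dKO library over both zones. Prdx1 rose in dKO by 0.46 ± 0.037 in LZ (limma adjusted p = 0.000997) and 0.29 ± 0.037 in DZ (limma adjusted p = 0.00891), or 1.38 and 1.22 times. The DZ values were 0.0725 and 0.0769 without dKO DZ replicates 1 and 2. It is 1 of the genes with processed copies elsewhere in the genome, which could share its reads.

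Srxn1 encodes sulfiredoxin, which repairs peroxiredoxins that peroxide has oxidised too far, and Nqo1 the quinone reductase often used as a readout of NRF2. Srxn1 was at 0.0399 FPKM in sKO LZ replicate 1 and 0.0379 in dKO LZ replicate 2, and listed at 0 in the other 6 libraries. Nqo1 was at 0.128 FPKM in dKO LZ replicate 1, 0.0434 and 0.0497 in sKO DZ and 0.142 and 0.0482 in dKO DZ. It was listed at 0 in both sKO LZ libraries and dKO LZ replicate 2. Both were below the filter in every library and were not tested, and no difference was detectable at these levels.

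Over the 8 genes tested, 6 rose in dKO LZ cells and 0 fell, against a background of 18.4% of all genes tested that rose and 12.7% that fell in that comparison. Their median difference was 0.52, against 0.022 for all genes tested. In DZ cells 5 rose and 0 fell, against 6.63% of all genes tested that rose and 5.23% that fell, with medians of 0.33 and 0.014. The DZ count was 3 without either sKO DZ library, 1 (Hmox1) without dKO DZ replicate 1 and 2 (Hmox1 and Txnrd1) without dKO DZ replicate 2, while the LZ count was 5 or 6 whichever library was left out. The members were named with results of these data known, so these counts describe them and are no test of the group. The summed level of 6 plasma cell markers, mostly Igj, moved with genotype beside these rises. It was 325 and 309 FPKM in sKO LZ against 368 and 368 in dKO LZ. In DZ it was 431 and 449 in sKO against 460 and 472 in dKO. Of the 3 markers tested, 1 rose in LZ, against 18.4% of all genes. In DZ 0 rose and 1 fell, against 6.63% and 5.23%. Between sKO and dKO DZ the mean of Igj went from 360 to 393 FPKM, Xbp1 from 75.6 to 70.3 and Irf4 from 3.53 to 2.17. Prdm1 was at 0.0577 and 0.0184 FPKM in sKO LZ and 0.980 and 0.967 in dKO LZ. In DZ it was at 0.0473 to 0.122 FPKM in sKO and 0.258 to 0.434 in dKO. Since Prdm1 is floxed in all 4 groups, its value can also count exons that remain after Cre recombination. Sdc1 (CD138) was at 0.0666 and 0.0637 against 0.606 and 0.505 in LZ, and at 0.0410 to 0.141 against 0.156 to 0.273 FPKM in DZ. Prdm1 and Sdc1 were below the filter in every library and were not tested. Tnfrsf17 was listed at 0 throughout. The part of plasma cells in the rises was not tested. In bulk RNA, fewer cells with a transcript and less of it per cell cannot be told apart.

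**Figure D3:**
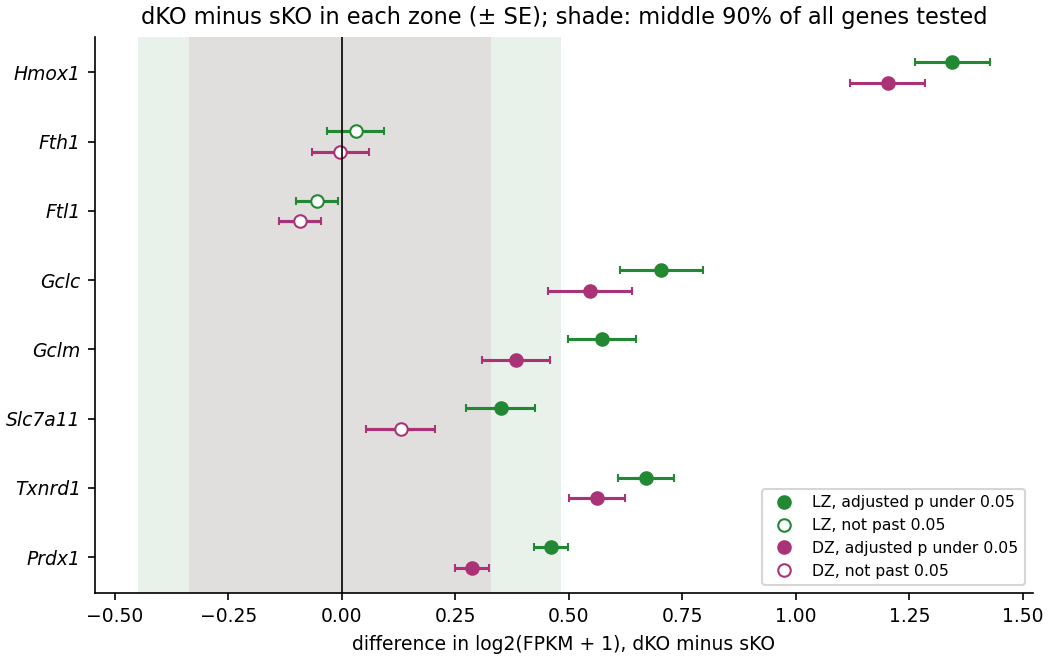
Difference of dKO minus sKO in log2(FPKM + 1) (horizontal axis) for the 8 genes tested, in LZ (green) and DZ (purple), with SE bars, filled where the adjusted p is under 0.05, over a shade for the middle 90% of all genes tested in each zone. Hmox1 lies at 1.34 and 1.20, Gclc, Gclm and Txnrd1 between 0.38 and 0.70, and Fth1 and Ftl1 between -0.092 and 0.030.

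Whether the response to Bach2 loss differed between the zones was tested as the interaction of genotype and zone. None of the 8 genes passed (adjusted p 0.358 to 0.912, limma), in a comparison in which 0.0283% of all genes passed. For Prdx1 the difference was larger in LZ by 0.18 ± 0.053 (limma unadjusted p = 0.0144), which did not pass after adjustment. The estimate was above 0 in each of the 8, from 0.034 in Fth1 to 0.22 in Slc7a11. The share of all genes tested above 0 was not computed. Their median was 0.014, and -0.022 with upper quartile scaling. For Fth1 and Ftl1 the sign turned with the scaling of the libraries. For Hmox1 the estimate depended on the pseudocount, since its level was low in sKO LZ: 0.14 with 1, 0.33 with 0.5 and 0.64 with 0.1, with adjusted p = 0.669, 0.469 and 0.381 (limma).

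The zones themselves differed in several of the genes. In sKO cells, 4 of the 8 were lower in LZ than in DZ and 0 higher, against 16.1% of all genes tested that were lower and 15.2% that were higher. Gclc was lower by 0.96 ± 0.092 on the log2 scale (limma adjusted p = 0.000905), at 10.6 ± 1.40 against 21.5 ± 0.681 FPKM. Hmox1 was at 0.611 ± 0.115 against 1.85 ± 0.0824 FPKM (limma adjusted p = 0.00107). Gclm was at 7.59 ± 0.329 against 10.0 ± 0.624 FPKM (adjusted p = 0.0138; 0.0512 without sKO LZ replicate 1 and 0.0718 without sKO DZ replicate 2). Slc7a11 was at 4.22 ± 0.371 against 5.25 ± 0.343 FPKM (adjusted p = 0.0423), a call lost without any 1 of 7 libraries, sKO LZ replicate 1 being the exception (0.0646 to 0.180), and with a replicate block (0.0677).

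In dKO cells 2 of the 8 were lower in LZ, against 16.1% of all genes tested, and 1 was higher, against 18% (34.1% of all genes passed in either direction). The lower ones were Gclc, at 17.8 ± 1.38 against 31.8 ± 0.909 FPKM (-0.80 ± 0.092, adjusted p = 0.00135, limma), and Hmox1, at 3.09 ± 0.000113 against 5.55 ± 0.216 FPKM (-0.68 ± 0.083, adjusted p = 0.00172). Both calls, in either genotype, held in each alternative run. Prdx1 was higher, at 374 ± 7.82 against 344 ± 3.53 FPKM (0.12 ± 0.037, adjusted p = 0.0477). That call was lost without any 1 of 6 libraries (up to 0.227), all but the sKO DZ pair, and with upper quartile scaling (0.0830), quantile normalization (0.468) or a replicate block (0.0574). Gclm and Slc7a11 did not pass in dKO cells (adjusted p = 0.122 and 0.710), nor Prdx1 in sKO cells (0.313), and Txnrd1, Fth1 and Ftl1 did not pass in either genotype (0.140 to 0.963). The relative depth moved with the zone, at 0.615 to 0.677 in LZ libraries, and its part in these differences was not tested. The summed light zone markers were 660 to 665 FPKM in sKO LZ and 589 to 592 in dKO LZ, and the dark zone markers 241 to 281 and 279 to 292. In DZ the light zone markers were 227 to 268 FPKM in sKO and 197 to 203 in dKO, and the dark zone markers 446 to 473 and 497 to 502. Of the 6 light zone markers, 1 had a genotype difference above 0 in each zone. This was Myc, with means of 37.1 and 53.9 FPKM in sKO and dKO LZ and 20.9 and 28.3 in DZ. The part of these marker levels in the genotype differences in either zone was not tested.

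**Figure D4:**
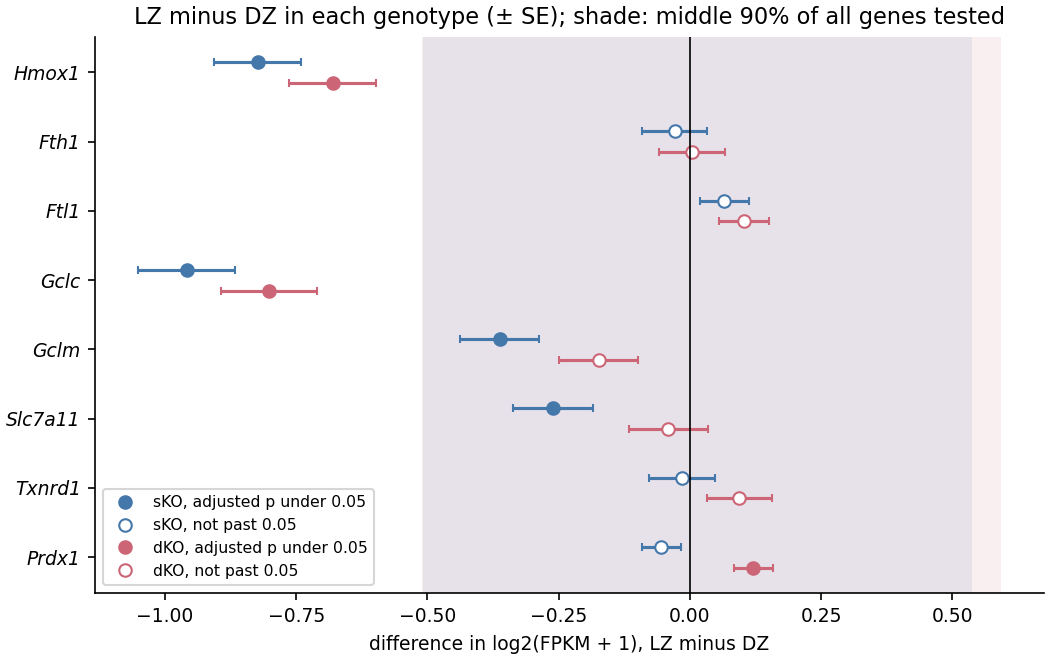
Difference of LZ minus DZ in log2(FPKM + 1) (horizontal axis) for the 8 genes tested, in sKO (blue) and dKO (red), with SE bars, filled where the adjusted p is under 0.05, over a shade for the middle 90% of all genes tested. Gclc (-0.96 and -0.80) and Hmox1 (-0.82 and -0.68) are lower in LZ in both genotypes and lie outside the shade.

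The genes whose profile over the 8 libraries was most like that of Hmox1 were found by the root mean square difference of log2(FPKM + 1) values, each gene centred on its own mean. The 5 nearest of all genes tested outside the 10 were Mettl7a1 (0.10), Dusp5, a phosphatase of the MAP kinase ERK (0.13), Myof, which encodes the membrane repair protein myoferlin (0.14), Tox2, a transcription factor gene (0.14), and BC017612 (0.16). Dusp5, for example, was at 8.29 and 7.54 FPKM in sKO LZ, 20.3 and 18.6 in dKO LZ, 12.5 and 13.5 in sKO DZ and 28.0 and 27.1 in dKO DZ. Like Hmox1, it was higher in DZ than in LZ of the same genotype and higher in dKO than in sKO of the same zone. This is a likeness of 8 values and carries no test.

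Other genes of the pathway were read from lists written down by function. Their counts stand against a background, over all genes tested, of 18.4% that rose and 12.7% that fell in LZ and of 6.63% and 5.23% in DZ, and a count near these shares says nothing about its list. Among the BACH, NRF and small MAF factors with KEAP1, 4 of the 8 tested rose in dKO LZ cells (Bach1, Bach2, Mafg and Maff), 2 rose in DZ (Bach1 and Bach2) and 0 fell in either, with 1 falling in LZ under upper quartile or median ratio scaling. Bach1, the other BACH repressor, was at 1.90 and 2.02 FPKM in sKO LZ and 2.98 and 2.58 in dKO LZ (0.35 ± 0.097, adjusted p = 0.0360, limma), and at 2.02 and 1.70 in sKO DZ and 2.91 and 2.67 in dKO DZ (0.41 ± 0.097, adjusted p = 0.0443). Nfe2l2, which encodes NRF2, was at 17.6 ± 1.23 and 19.8 ± 0.363 FPKM in sKO and dKO LZ and at 20.5 ± 1.17 and 22.8 ± 0.961 in sKO and dKO DZ (adjusted p = 0.105 and 0.201). Keap1 had differences of -0.12 ± 0.048 and -0.10 ± 0.048 (adjusted p = 0.105 and 0.218), and Nfe2l1 and Mafk had adjusted p of 0.490 to 0.967. Mafg, at 3.65 ± 0.851 and 6.49 ± 0.986 FPKM in LZ, had 0.69 ± 0.15 (adjusted p = 0.0156), and Maff was at 0.613 ± 0.143 and 1.19 ± 0.0741. Maff reached 1 FPKM in dKO LZ alone and so entered the test through the group in which it was high, which leaves 3 others in the LZ count. Bach2 is the gene altered by the genotype itself, and its value also counts exons that remain after Cre recombination. Apart from it and Maff, the genes that rose were Bach1 and Mafg in LZ and Bach1 in DZ. Nfe2 did not exceed 0.369 FPKM. The LZ count was 1 or 2 without sKO LZ replicate 2 or either dKO LZ library. It was 2 without the filter, with a filter at 5 FPKM and with only the libraries compared. The DZ count was 1 without any library but a dKO DZ one and 0 without either of those. It was also 1 in these 3 settings, with upper quartile or median ratio scaling and with a replicate block. Bach1, at most 2.98 FPKM, was removed by the filter at 5 FPKM, so its DZ call was not among those that held throughout.

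Of 8 heme synthesis enzymes 1 rose in each zone, against 18.4% of all genes tested in LZ and 6.63% in DZ: Cpox, coproporphyrinogen oxidase, from 11.6 ± 0.213 to 15.5 ± 0.0107 FPKM in LZ (0.39 ± 0.062, adjusted p = 0.00552, limma) and from 14.2 ± 1.05 to 17.6 ± 0.785 in DZ (adjusted p = 0.0326; lost without sKO DZ replicate 1 or any dKO library, with a replicate block, without the filter and with only the libraries compared). Alad, the next by p, had a difference of 0.20 ± 0.084 in LZ (adjusted p = 0.111, limma). The list medians were 0.11 in LZ and 0.093 in DZ. Of 6 tested genes of heme breakdown and transport 2 rose in LZ, against 18.4% of all genes: Abcb6, a porphyrin transporter (0.43 ± 0.095, adjusted p = 0.0169), and Slc48a1, which exports heme from lysosomes (0.21 ± 0.051, adjusted p = 0.0242). Pgrmc1, a heme-binding membrane protein, had 0.12 in LZ (adjusted p = 0.264). None of the 6 passed in DZ, and 0 or 1 passed in LZ without sKO LZ replicate 1 or 2, either dKO LZ library or either dKO DZ library. Hmox2, the constitutive heme oxygenase, was between 43.2 and 48.0 FPKM in all 8 libraries.

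Of 12 iron handling genes tested, 6 rose and 1 fell in LZ (against 18.4% and 12.7% of all genes), and 3 rose in DZ (against 6.63%), with medians of 0.12 and 0.086. The count that fell in LZ was 2 with each of the 3 other scalings. Tfrc, the transferrin receptor through which cells take up iron, was at 32.8 and 34.0 FPKM in sKO LZ, 48.4 and 46.4 in dKO LZ, 26.0 and 23.7 in sKO DZ and 33.0 and 32.6 in dKO DZ. It rose by 0.49 ± 0.054 in LZ (limma adjusted p = 0.00194) and 0.39 ± 0.054 in DZ (limma adjusted p = 0.0108). Slc39a14, a transporter that takes up zinc and iron outside the transferrin route, was at 2.22 and 1.95 FPKM in sKO LZ, 4.38 and 4.45 in dKO LZ, 1.26 and 1.53 in sKO DZ and 2.89 and 2.54 in dKO DZ (0.81 ± 0.096 and 0.63 ± 0.096, adjusted p = 0.00229 and 0.0137). The third to rise in DZ was Slc11a2, a divalent metal transporter. The gene that fell in LZ was the mitochondrial iron importer Slc25a37, a call lost without sKO LZ replicate 2 or either dKO LZ library. Slc40a1, the iron exporter ferroportin, did not exceed 0.340 FPKM. The LZ count was 2 or 3 without sKO LZ replicate 2, a dKO LZ or a dKO DZ library, and the DZ count 1 without sKO DZ replicate 1 and 0 without either dKO DZ library.

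Of 17 other genes of the thioredoxin and peroxiredoxin system, 5 rose and 1 fell in LZ (against 18.4% and 12.7% of all genes) and 1 rose in DZ (against 6.63%), with medians of 0.18 and 0.033. The count that fell in LZ was 3 with upper quartile scaling, 2 with quantile normalization and 0 without the filter. In LZ the peroxiredoxin genes Prdx4 and Prdx3 rose by 0.41 ± 0.064 and 0.34 ± 0.057 (adjusted p = 0.00522 and 0.00718, limma), and the 1 that rose in DZ was Glrx, glutaredoxin (0.40 ± 0.061, adjusted p = 0.0135). Without dKO LZ replicate 2 the LZ count was 2 and none fell, and the DZ call was lost without sKO DZ replicate 1 or either dKO DZ library. Of 14 tested genes of glutathione synthesis and use, 3 rose and 1 fell in LZ, against 18.4% and 12.7% of all genes, and 0 rose and 1 fell in DZ, against 6.63% and 5.23%. Slc3a2, the heavy chain that partners Slc7a11 and other amino acid transporters, went from 33.7 ± 1.90 to 42.3 ± 1.69 FPKM in LZ (0.32 ± 0.057, adjusted p = 0.00797). Mgst3, a microsomal glutathione transferase, was at 0.431 ± 0.0137 and 1.23 ± 0.326 FPKM there (adjusted p = 0.0171). The gene that fell in both zones was the glutathione transferase Gstt1, from 10.7 ± 0.575 to 4.75 ± 1.21 FPKM in LZ (-1.04 ± 0.14, adjusted p = 0.00314) and from 5.51 ± 0.0496 to 2.55 ± 0.147 in DZ (-0.88 ± 0.14, adjusted p = 0.0141; lost without any 1 DZ library). Without dKO LZ replicate 2, 1 glutathione gene rose in LZ.

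Of 11 tested genes of NADPH supply, which feeds both thioredoxin and glutathione reductases, 7 rose and 1 (Nnt) fell in LZ (lost without any 1 LZ or sKO DZ library), and 5 rose in DZ, against 18.4%, 12.7% and 6.63% of all genes, with medians of 0.21 and 0.17. The folate enzymes Mthfd1 and Mthfd2 rose by 0.63 ± 0.060 and 0.56 ± 0.061 and the mitochondrial isocitrate dehydrogenase Idh2 by 0.53 ± 0.045 in LZ (adjusted p = 0.00107 to 0.00184, limma), and by 0.52, 0.33 and 0.35 in DZ. The LZ count was 4 without sKO LZ replicate 1 or either dKO LZ library, and the DZ count was 2 or 3 without an sKO DZ library, 0 without dKO DZ replicate 1 and 1 without dKO DZ replicate 2. Of 10 genes of superoxide and peroxide removal, 4 rose in LZ (2 without the filter) and 2 in DZ, against 18.4% and 6.63% of all genes. Catalase (Cat) went from 76.3 ± 3.94 to 99.1 ± 0.168 FPKM in LZ (0.37 ± 0.047, adjusted p = 0.00271) and from 132 ± 4.64 to 182 ± 1.80 in DZ (0.46 ± 0.047, adjusted p = 0.00508). Sod2, the mitochondrial superoxide dismutase, and Park7 rose in LZ by 0.30 ± 0.052 and 0.40 ± 0.072 (adjusted p = 0.00728 and 0.00828), and Osgin1, a gene induced by oxidative stress, rose in DZ (0.65 ± 0.14, adjusted p = 0.0344) and had 0.14 in LZ (adjusted p = 0.480). The DZ count was 1 without either dKO DZ library, with a replicate block, without the filter, with a filter at 5 FPKM and with only the libraries compared. Osgin1, at most 2.18 FPKM, was the gene removed by the filter at 5 FPKM.

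**Figure D5:**
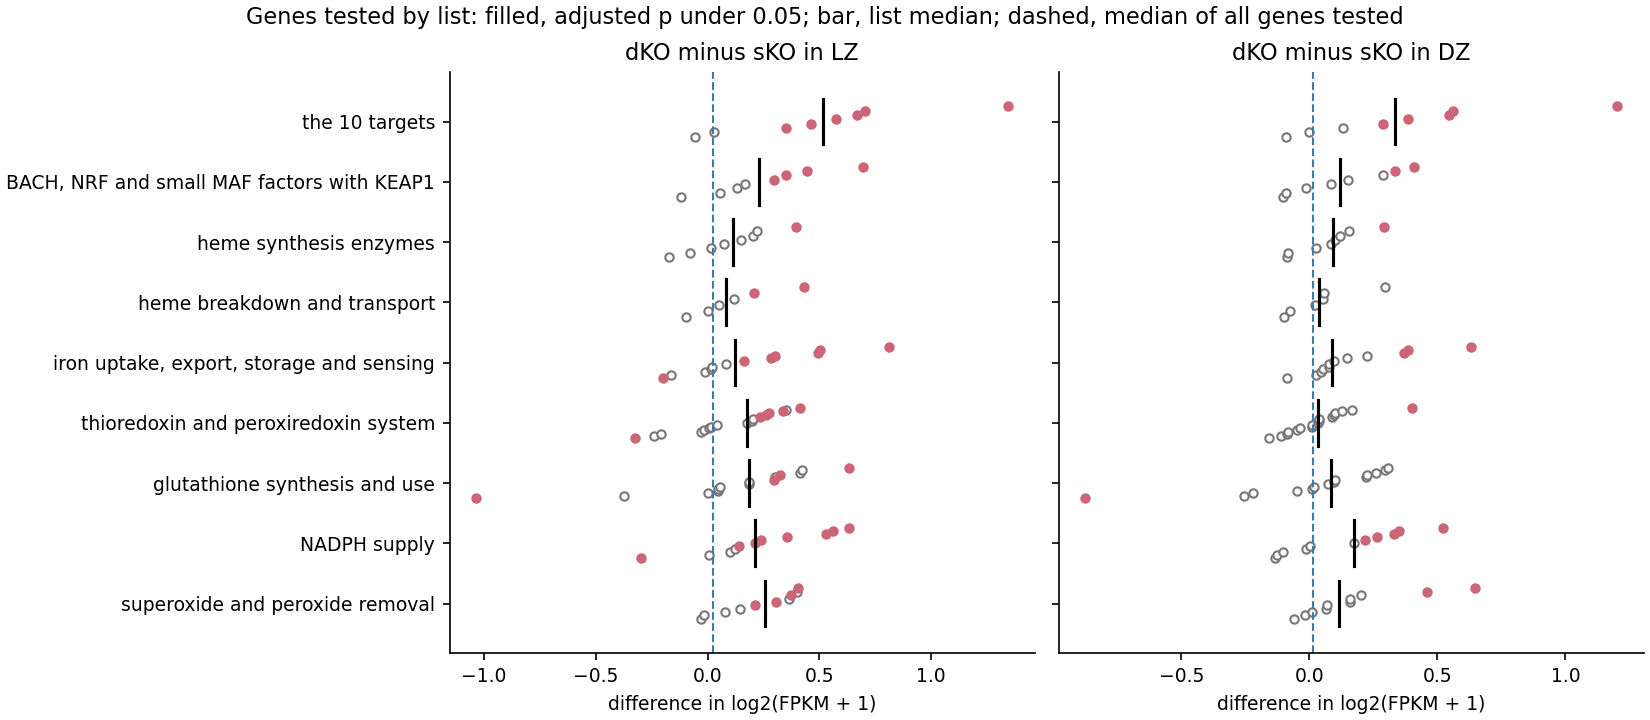
Difference of dKO minus sKO in log2(FPKM + 1) (horizontal axes) for every tested gene of the 10 targets and of 8 lists, in LZ (left) and DZ (right), filled where the adjusted p is under 0.05, with a bar at each list median and a dashed line at the median of all genes tested. The medians of the targets, 0.52 and 0.33, lie to the right of those of the 8 lists, which run from 0.083 to 0.26 in LZ and from 0.033 to 0.17 in DZ.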

How the data were processed

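RNA-seq values of 8 libraries in 4 groups of 2 were analysed. The authors deposited 1 table of FPKM values for 23234 gene symbols; its closing line repeats the libraries' codes and was dropped, and the number of columns with no sample was 0. The submitters' processing notes list TopHat2 2.0.8, Cufflinks 2.1.1 and mm9 without saying what each did; the gene annotation and options are not given in the sources used here. The protocol does not say whether strand was kept. Counts were not analysed here, so no test on counts was run.

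FPKM were taken as log2(FPKM + 1). Genes reaching 1 FPKM in 2 or more libraries were fitted with limma 3.58.1 in R 4.3.3 (group means, intensity trend, 4 residual and 2.46 prior degrees of freedom, 2-sided tests, Benjamini-Hochberg over 10610 genes within a comparison, threshold 0.05); the script was tested on simulated data. Intervals of 95% use the same fit. The depth is unknown beyond relative values, read off genes between 0.001 and 0.1 FPKM as the most frequent ratio to sKO DZ replicate 1 (17.9% to 24.5% of those genes).

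The members, lists and rules were chosen with earlier results of these data known. All 10 members, all BACH, NRF and MAF factors, the 3 genes of each list with the smallest p in either genotype comparison and the 5 genes most like Hmox1 were to be named, of which some are not reported here; Nnt, Slc11a2, Slc25a37, Slc40a1, Hmox2 and Osgin1 were named after their values were seen. Lists of B cell, germinal centre, zone, myeloid, erythroid, T cell, NK, stromal and plasma cell markers were also read. The summed levels over all libraries were 2670 to 3715 FPKM (B cell), 783 to 847 (germinal centre), 197 to 665 (light zone), 241 to 502 (dark zone), 17.0 to 36.1 (erythroid), 1.91 to 6.70 (T cell), 0.126 to 1.32 (NK), 9.06 to 18.3 (stromal, nearly all Pecam1) and 309 to 472 (plasma cell, mostly Igj, by group in the report). RefSeq promoters (GRCm38.p6) were matched by symbol; the table itself was made on another build, so no coordinate was taken from it.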

Additional observations from a re-analysis of the deposited data

How the results depend on the processing

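Of 40 member differences (8 genes in 5 comparisons), recomputed under 17 or 18 alternatives each, 650 values kept their direction and their side of the threshold, 42 lost the call, 1 gained it and 19 changed sign; those that changed sign were Fth1, Ftl1 and Txnrd1 values that were not called. The sign changed for Fth1 in LZ with upper quartile scaling (-0.030) and median ratio scaling (-0.0019), with values of -0.024 to 0.085 without 1 library, and for Fth1 in DZ without 1 library (-0.074 to 0.067). For the interaction it changed for Fth1 (-0.0064 with upper quartile scaling, -0.037 to 0.10 without 1 library) and Ftl1 (-0.0025 with upper quartile scaling, -0.035 with quantile normalization, -0.0095 to 0.085 without 1 library). For zone in sKO it changed for Txnrd1 (0.0051 with upper quartile scaling, 0.0027 with quantile normalization, -0.098 to 0.068 without 1 library) and Fth1 (-0.0996 to 0.042 without 1 library), and for zone in dKO for Fth1 (-0.014 with upper quartile scaling, -0.077 with quantile normalization, -0.050 to 0.060 without 1 library). Ftl1 was called higher in dKO LZ than dKO DZ when only those libraries were fitted (adjusted p = 0.0377, limma). The cause of these changes was not tested.

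The genes past the threshold were 3299 in LZ and 1258 in DZ for genotype, 3 for the interaction, 3312 for zone in sKO and 3623 in dKO. Without a filter on low values they were 2057, 570, 63, 2168 and 2517. With only the libraries compared they were 772 for genotype in DZ and 1895 for zone in sKO. Without 1 library they were 1703 to 3158, 112 to 1346, 2 to 6, 2006 to 3032 and 2007 to 3864 in the same order. Member counts moved from 5 to 3 higher in DZ and from 4 to 2 lower in sKO LZ without the filter. The 1 member higher in dKO LZ than DZ became 0 without the filter, with upper quartile scaling, quantile normalization, constant prior variance or the replicate block, and 2 with only the libraries compared. Without 1 library the counts were 1 to 5 for members higher in DZ, 2 to 3 for those lower in sKO LZ and 0 to 1 for those higher in dKO LZ. Of all called genes, 59.0% were higher in dKO LZ, and 45.5% with upper quartile scaling.

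With the label number as a replicate block, 2994 genes passed in LZ, 881 in DZ, 3 for the interaction, 2990 and 3326 for zone; it lost the zone calls of Slc7a11 in sKO and Prdx1 in dKO and no other member call. Same-numbered libraries of the groups compared had deviations correlated at -0.098 to 0.12 across genes, so that the numbers were not taken to pair them. FPKM give no counting error, so what depth limits at the low levels of Nqo1 and Srxn1 is unknown. A test on counts, listed among the alternatives, was not run, since the values are not counts.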
